A study of Danio rerio with 3 samples.

Results

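The aryl hydrocarbon receptor (AHR) and its cytochrome P450 family 1 (CYP1) targets were followed in the liver of zebrafish larvae through 8 genes, cyp1a, cyp1b1, cyp1c1, cyp1c2, ahr2, ahrra, ahrrb, and tiparp. The members were all probes, control spots aside, whose RefSeq accession belongs to one of these genes. There were 24 such probes among the 43603 probes of the array, and 8 genes among the 13443 with a gene symbol. The question was whether berberine, a plant alkaloid given against fatty liver, moved the receptor and its targets in livers on a high cholesterol diet.

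Liver RNA of AB strain larvae was hybridized in a single colour to 3 arrays, 1 for each group, so that no value has a replicate and no P value can be given. The HCD+BBR larvae received berberine (BBR) at 5 μM together with the high cholesterol diet (HCD), which was 180 mg of AP100 feed per 100 fish per day with 4% cholesterol. The HCD larvae received the same diet without berberine. The control larvae received 30 mg of AP100 per 100 fish per day and no added cholesterol. Feeding began at 5 days post fertilization (dpf) and lasted 10 days, and the sources used here do not give the number of larvae behind an array. HCD and control larvae therefore differed in the amount of feed and in cholesterol, which cannot be told apart in that comparison. HCD+BBR and control larvae differed in the amount of feed, in cholesterol, and in berberine, which cannot be told apart there either. The HCD+BBR and control arrays shared slide 1, and the HCD array was alone on slide 2, so the slide cannot be told apart from the difference of the HCD array from the others. The HCD+BBR array lay at position 4 of its slide, and the HCD and control arrays each at position 1 of theirs. Position on the slide therefore cannot be told apart from the difference of the HCD+BBR array from the others.

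The AHR is a transcription factor that waits in the cytosol with heat shock protein 90 and cochaperones until a planar aromatic ligand binds it. It then enters the nucleus, pairs with ARNT, and switches on the CYP1 enzymes, which oxidize polycyclic aromatic compounds and some hormones and fatty acids, together with repressors that switch the receptor off again. In fish liver, cyp1a is the classic marker of AHR activity, and ahr2 is the receptor through which zebrafish respond to dioxins. In human hepatoma cells, berberine at high concentrations has been described as an activator of the receptor.

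Of the spots, 92.3% were well above background on the HCD+BBR array, against 88.5% on the HCD array and 89.9% on the control array. The scanner software marked 20 spots as outliers on the HCD+BBR array, against 1665 on the HCD array and 1510 on the control array. Of 10 hepatocyte markers, all 10 were well above background on every array, and their summed signal relative to the 75th percentile of the array was 179 in HCD+BBR, 166 in HCD, and 163 in control. Markers of exocrine pancreas, intestine, muscle, and other epithelium were also well above background on every array. The summed signal of 9 exocrine pancreas markers was 297 in HCD+BBR, 276 in HCD, and 323 in control. That of 7 muscle markers was 199, 192, and 217. Both exceeded the hepatocyte sum, and those of intestine (83.1, 90.8, and 86.6) and epithelium (79.3, 70.7, and 84.2) were smaller. Sums over different genes do not give tissue shares, and the member signals cannot be assigned to a cell type. In such bulk RNA, fewer cells of a type and less RNA per cell cannot be told apart.

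Each of the 24 member probes was printed once and was well above background and below saturation on all 3 arrays. Signals are given as background-subtracted intensities of the scanner, and differences as log2 of the signal relative to the 75th percentile of the array, which was 2144 in HCD+BBR, 2024 in HCD, and 2010 in control. For scale, probes of the same gene differed from each other in their log2 differences by an SD of 0.34 for HCD+BBR over HCD (7238 genes), 0.32 for HCD over control (6921 genes), and 0.30 for HCD+BBR over control (7290 genes). This SD covers probes and spots, not animals. The probes of a gene are numbered in the order of their identifiers.

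In both comparisons with HCD+BBR, the largest mean difference among the members was that of cyp1a, which was lowest in HCD+BBR, intermediate in HCD, and highest in control at each of its 3 probes. Probe 1 of cyp1a (A_15_P100578) had a signal of 6079 ± 608 in HCD+BBR, 14692 ± 1469 in HCD, and 21406 ± 2141 in control, where the error is the estimate of the scanner software for the spot. Probe 2 (A_15_P131751) had 160 ± 16.8 in HCD+BBR, 465 ± 46.8 in HCD, and 1063 ± 106 in control. Probe 3 (A_15_P659656) had 204 ± 20.7 in HCD+BBR, 595 ± 59.7 in HCD, and 1368 ± 137 in control. The spot errors of the 3 arrays did not overlap at any of these probes.

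Relative to HCD, the cyp1a signal in HCD+BBR was lower by 2.56-fold, 3.09-fold, and 3.10-fold at probes 1, 2, and 3, with log2 differences of -1.36, -1.63, and -1.63. The log2 differences of HCD over control were -0.55, -1.20, and -1.21, of which those of probes 2 and 3 passed 2-fold. Those of HCD+BBR over control were -1.91, -2.83, and -2.84, a signal lower by 3.76-fold, 7.10-fold, and 7.16-fold. As a mean of its probes, cyp1a had a log2 difference of -2.53 for HCD+BBR over control, and 3 of 12866 genes, cyp1a included, were as low. The others were nlgn3a, a neuroligin, at -2.95 and sv2ca, a synaptic vesicle protein, at -2.55, each on 1 probe and each chosen after its values were seen. The mean for HCD+BBR over HCD was -1.54, and 25 of 12831 genes were as low.

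**Figure D1:**
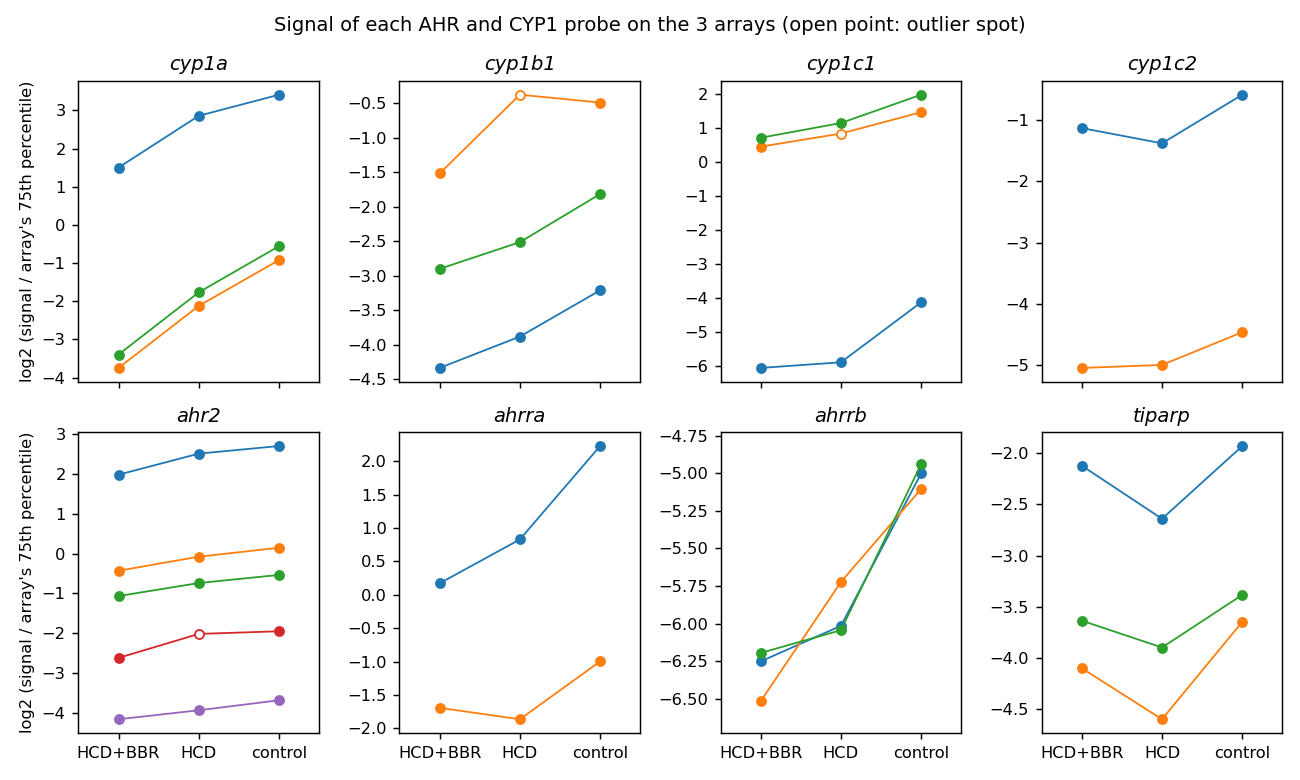
Signal of each member probe on the HCD+BBR, HCD, and control arrays, as log2 of the signal over the 75th percentile of the array, with 1 panel per gene, 1 line per probe, and open points for spots marked as outliers. The axes differ between panels. All 3 lines of cyp1a climb from HCD+BBR through HCD to control, and those of tiparp have their lowest point in HCD.

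The other CYP1 genes were also highest in control at every probe measured on all arrays, and differed less between HCD+BBR and HCD than cyp1a did. The gene cyp1b1 encodes a P450 known from work on eye development, in which its substrates include retinoids and steroids. Probe 1 of cyp1b1 (A_15_P131961) had a signal of 106 in HCD+BBR, 137 in HCD, and 217 in control, and probe 3 (A_15_P631471) had 288 in HCD+BBR, 355 in HCD, and 572 in control. Their log2 differences were -0.45 and -0.39 for HCD+BBR over HCD, and -0.67 and -0.70 for HCD over control. Over control, the HCD+BBR signal passed the 2-fold threshold at all 3 probes, at -1.12, -1.03, and -1.08, and fell just short of it with normexp background correction, at -0.94, -0.99, and -0.96, as probe 2 did with cyclic loess. Probe 2 (A_15_P171581) had 749 in HCD+BBR and 1432 in control, and its HCD spot, at 1560, was marked as an outlier and left out. With that spot kept, probe 2 would give -1.14 for HCD+BBR over HCD and 0.11 for HCD over control, which is a difference in direction from probes 1 and 3 in the comparison of HCD with control.

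The CYP1C enzymes are a branch of the family known from fish, and cyp1c1 and cyp1c2 lie next to each other in the zebrafish genome. Probe 3 of cyp1c1 (A_15_P660586) had a signal of 3532 in HCD+BBR, 4504 in HCD, and 7965 in control, and probe 2 (A_15_P208721) had 2947 in HCD+BBR and 5579 in control, with an outlier spot of 3634 in HCD. Probe 1 (A_15_P130722), a dim probe, had 32.5 in HCD+BBR, 34.4 in HCD, and 116 in control. The gene cyp1c1 had log2 differences for HCD+BBR over HCD of -0.17 and -0.43 at probes 1 and 3, both short of the threshold. Its 3 probes gave, for HCD+BBR over control, -1.93, -1.01, and -1.27, all past 2-fold (probe 2 was at -0.99 with normexp background correction or cyclic loess), and for HCD over control probe 1 gave -1.77 and probe 3 -0.83. With normexp background correction, probe 1 gave -0.91 for HCD over control, short of 2-fold.

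Its neighbour cyp1c2 did not pass 2-fold in any comparison. Probe 1 of cyp1c2 (A_15_P287511) had a signal of 981 in HCD+BBR, 780 in HCD, and 1344 in control, and probe 2 (A_15_P594077) had 64.7 in HCD+BBR, 63.1 in HCD, and 90.9 in control. The log2 differences were 0.25 and -0.05 for HCD+BBR over HCD, -0.80 and -0.54 for HCD over control, and -0.55 and -0.58 for HCD+BBR over control. The genes cyp1c1 and cyp1c2 are close paralogs, and the sequences of the probes were not analysed here, so how far each probe separates them is uncertain. The remaining CYP1 gene of zebrafish, cyp1d1, is no member and was highest in control on its single probe. It had 1566 ± 157 in HCD+BBR, 1599 ± 160 in HCD, and 2415 in control. Its log2 differences were -0.11 for HCD+BBR over HCD, -0.60 for HCD over control, and -0.72 for HCD+BBR over control. The -0.11 was smaller than the SD of 0.34 between probes of a gene, and the spot errors of HCD+BBR and HCD overlapped, so their order is not resolved.

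The receptor gene ahr2 differed least between HCD and control among the 8 genes. Its probe 1 (A_15_P103538) had a signal of 8479 ± 848 in HCD+BBR, 11554 ± 1155 in HCD, and 13104 ± 1310 in control. Its 5 probes lay between -0.72 and -0.48 for HCD+BBR over control, and the 4 probes with an HCD value lay between -0.53 and -0.23 for HCD+BBR over HCD and between -0.25 and -0.19 for HCD over control. None passed 2-fold, and the values for HCD over control lay near -0.16, the median of all probes in that comparison. The direction of probe 5 (A_15_P770221) in HCD over control changed under 2 of 9 other processing settings, to 0.09 at most. Of the other receptors, ahr1b, the neighbour of ahr2, was not well above background on any array, and no probe was named as ahr1a.

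The AHR repressors, which compete with the receptor for ARNT and are themselves its targets, were lower in HCD and HCD+BBR than in control. Probe 1 of ahrra (A_15_P409285) had a signal of 2414 ± 241 in HCD+BBR, 3593 ± 359 in HCD, and 9401 ± 940 in control, and its log2 differences were -0.66 for HCD+BBR over HCD, -1.40 for HCD over control, and -2.05 for HCD+BBR over control. Probe 2 (A_15_P632501) had 664 in HCD+BBR, 557 in HCD, and 1007 in control, with differences of 0.17, -0.87, and -0.69 in the same comparisons. The probes of ahrra thus differed in direction between HCD+BBR and HCD, and that of probe 2 turned below 0, to -0.03, under 1 of 9 other settings.

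Signals of ahrrb were low, between 23.4 and 65.6 at all 3 probes and on all arrays, not far above the lowest signals well above background (17.7 in HCD+BBR, 19.5 in HCD, and 21.4 in control). The log2 differences of probes 1 to 3 (A_15_P153881, A_15_P378980, and A_15_P662786) were -1.25, -1.41, and -1.26 for HCD+BBR over control and -1.02, -0.62, and -1.11 for HCD over control. Those for HCD+BBR over HCD were -0.24, -0.79, and -0.15. Dim probes as a whole were lower in HCD: among all probes with a mean signal of 16 to 64, 10.0% were at least 2-fold lower in HCD than in control with a median of -0.38, whereas 3.32% were at least 2-fold lower in HCD+BBR than in control with a median of 0.03. With normexp background correction, the ahrrb differences for HCD+BBR over control shrank to between -0.61 and -0.44, short of 2-fold.

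The gene tiparp, which encodes a mono-ADP-ribosyltransferase that is induced by the receptor and represses it in mammals, was lowest in HCD rather than in HCD+BBR at all 3 of its probes. Probe 1 of tiparp (A_15_P208511) had a signal of 492 ± 49.5 in HCD+BBR, 324 ± 32.7 in HCD, and 527 ± 53.0 in control. Probe 2 (A_15_P513607) had 125 in HCD+BBR, 83.7 in HCD, and 161 in control, and probe 3 (A_15_P737081) had 173 in HCD+BBR, 136 in HCD, and 193 in control. The 3 probes had log2 differences of 0.52, 0.50, and 0.26 for HCD+BBR over HCD, of which the first 2 turned to -0.01 and -0.09 with normexp background correction. They had -0.71, -0.95, and -0.51 for HCD over control and -0.19, -0.45, and -0.25 for HCD+BBR over control, and none of the 9 values passed 2-fold.

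**Figure D2:**
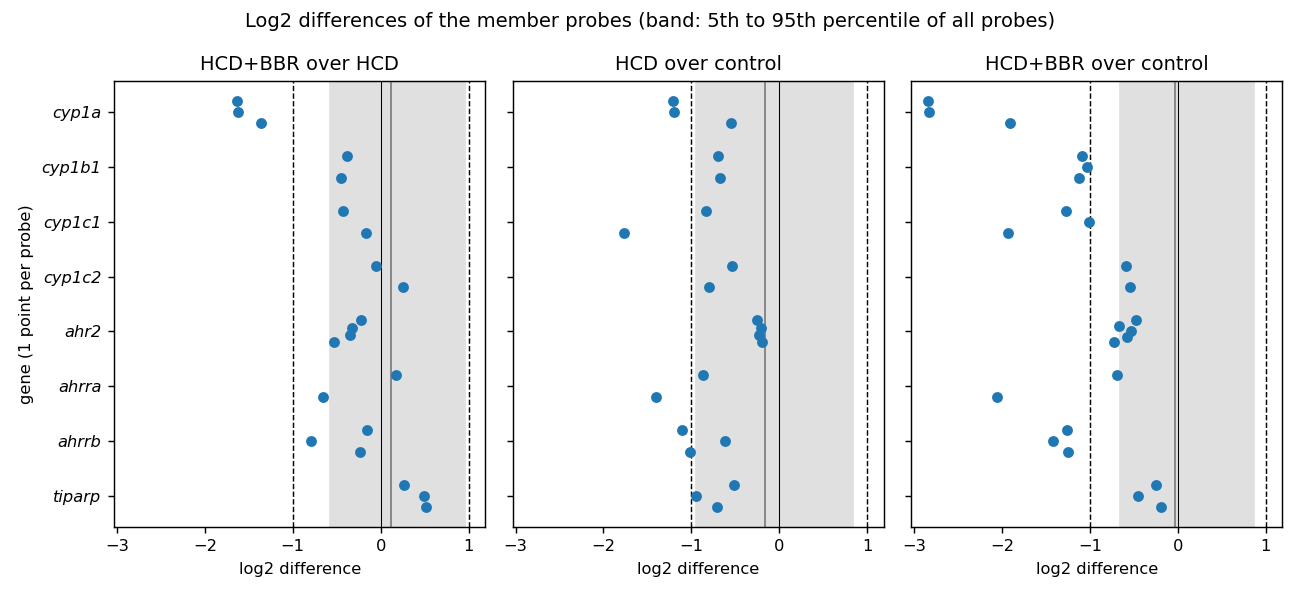
Log2 differences of the member probes, 1 point per probe and 1 row per gene, for HCD+BBR over HCD, HCD over control, and HCD+BBR over control. Dashed lines mark 2-fold, the grey band runs from the 5th to the 95th percentile of all probes, and the vertical grey line is their median. In HCD+BBR over HCD the 3 cyp1a points lie beyond 2-fold and the other members within it, whereas in HCD+BBR over control 13 of 24 points lie beyond 2-fold.

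Over the members together, cyp1a was the gene past 2-fold in HCD+BBR relative to HCD. For HCD+BBR over HCD, 3 of 21 member probes were at least 2-fold lower, all of cyp1a, where 1.30% of all 38771 probes tested were, and none was at least 2-fold higher, where 4.38% were. Of these 21 probes, 16 lay below 0, against 38.8% of all probes, and their median was -0.33, against 0.12 for all probes. Without cyp1a, the median of the 18 other probes was -0.23 and 13 of them lay below 0. All probes of a gene lay below 0 in 5 of the 8 genes, the exceptions being cyp1c2, ahrra, and tiparp. A further probe passed 2-fold under some settings, probe 2 of ahrrb with quantile normalization or cyclic loess, at -1.24 at the lowest, and probe 2 of cyp1b1 with its outlier spot kept.

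For HCD over control, 6 of 21 member probes were at least 2-fold lower, where 4.01% of all 37111 probes were, and none was at least 2-fold higher, where 3.55% were. These were probes 2 and 3 of cyp1a, probe 1 of cyp1c1, probe 1 of ahrra, and probes 1 and 3 of ahrrb. The cyp1c1 probe and both ahrrb probes were dim, with a mean signal of 16 to 64. In that range 3 of 4 member probes were at least 2-fold lower, where 10.0% of all probes were. All 21 lay below 0, against 62.7% of all probes, and their median was -0.71, against -0.16 for all probes. With normexp background correction 2 of the 21 were at least 2-fold lower, probe 3 of cyp1a and probe 1 of ahrra, and the share of all probes was 0.954%. Both ahrrb probes also fell short of 2-fold with quantile normalization, at -0.69 and -0.78, and with cyclic loess, at -0.65 and -0.74, and probe 1 of ahrrb with median scaling, at -0.92. The slide moved with this comparison and with that of HCD+BBR over HCD, and its part in the result was not tested.

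The comparison of HCD+BBR with control lay within 1 slide, but the positions on it differed, and the part of position in the result was not tested. In this comparison, 13 of 24 member probes were at least 2-fold lower, where 1.32% of all 39041 probes were. None was at least 2-fold higher, where 3.72% were. All 24 lay below 0, against 52.8% of all probes, as did every member probe tested under the other processing settings, and their median was -1.02, against -0.03 for all probes. All probes passed the threshold in 4 genes, cyp1a, cyp1b1, cyp1c1, and ahrrb, and 1 of 2 in ahrra, whereas ahr2, cyp1c2, and tiparp had none past it. Among the CYP1 genes 9 of 11 probes passed, and 6 of 8 without cyp1a. With normexp background correction 6 of the 24 passed 2-fold, of which 3 were the cyp1a probes, and the share of all probes was 0.515%.

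On all 3 arrays, 21 member probes had a value. Control was highest in 21 of them, against 42.7% of the 36787 probes of the whole array, and HCD+BBR was lowest in 16, against 25.1%, each of these with HCD between the others, against 14.3%. HCD was lowest in 5, against 48.3% of all probes: the 3 of tiparp, 1 of cyp1c2, and 1 of ahrra. At least 2-fold lower in HCD+BBR than in both other groups were 91 probes (0.247%) of the whole array, among them the 3 cyp1a probes and no other member probe. The 3 comparisons share their arrays, so these counts are not independent of each other. The member probes come from only 8 genes, and probes of the same gene are repeated measures of it, so the probes within a count are not independent either.

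**Figure D3:**
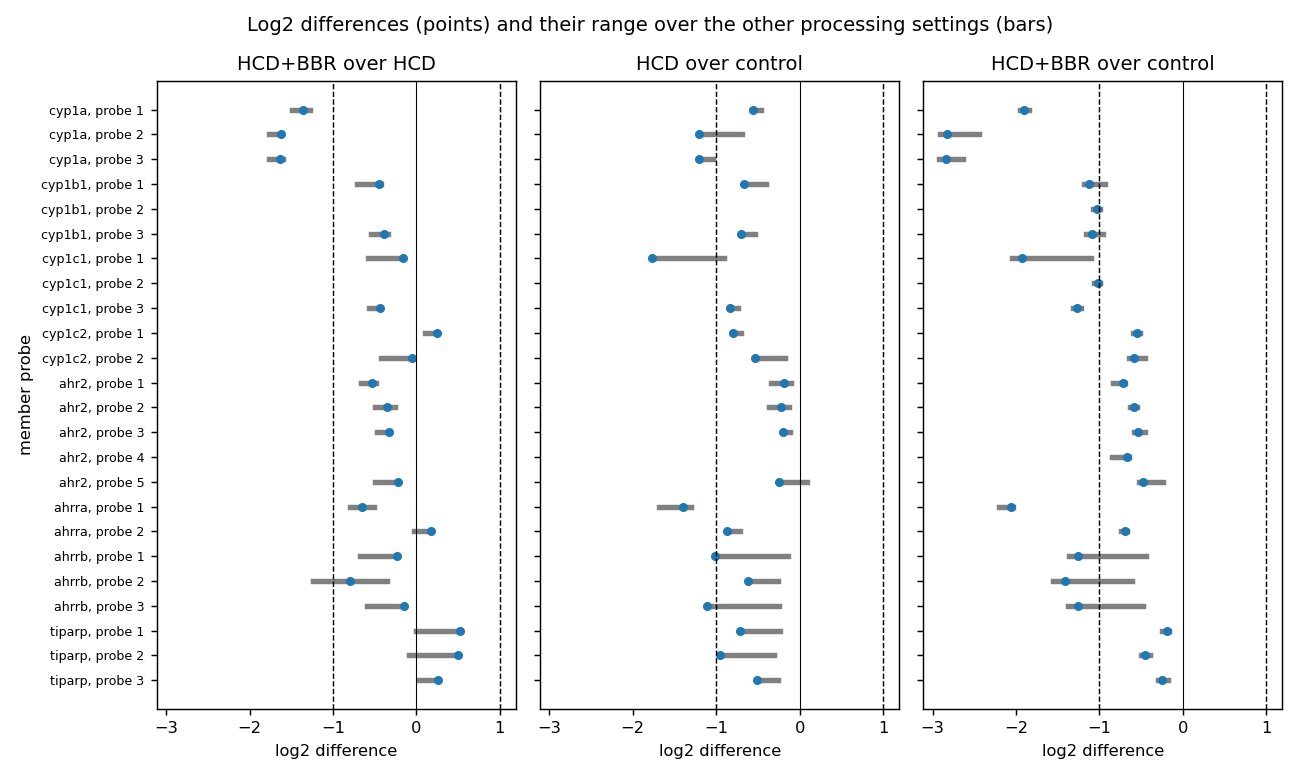
Log2 difference of each member probe (point) and its range over the other processing settings (bar), for HCD+BBR over HCD, HCD over control, and HCD+BBR over control, with dashed lines at 2-fold. Probe 2 of cyp1b1, probe 2 of cyp1c1, and probe 4 of ahr2 have no HCD value. The bars of cyp1a stay beyond 2-fold in HCD+BBR over HCD and in HCD+BBR over control, and those of ahrrb cross the line in HCD+BBR over control.

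The partners of the receptor were within 2-fold at nearly all probes. The list of partners and chaperones held 9 genes with 24 probes tested for HCD+BBR over HCD, of which 0 were at least 2-fold lower and 1 at least 2-fold higher, near the 4.38% of all probes, with a median of 0.41. The higher probe was 1 of 4 of hsp90aa1.2, a cytosolic heat shock protein 90, with a signal of 5912 in HCD+BBR, 2599 in HCD, and 3698 in control, which was higher by 2.15-fold in HCD+BBR than in HCD. Its other probes had log2 differences of 0.74, 0.68, and 0.46. For HCD over control and for HCD+BBR over control no probe of the list passed 2-fold, with medians of -0.21 and 0.11. Of all probes, 4.01% and 1.32% were at least 2-fold lower in these comparisons, and 3.55% and 3.72% higher. One hsp90aa1.1 probe, with 8411 in HCD+BBR and outlier spots of 2061 in HCD and 3077 in control, was left out of every comparison. The other hsp90aa1.1 probes had 0.91 and 0.12 for HCD+BBR over HCD. The gene arnt, the partner in DNA binding, had 135 in HCD+BBR, 90.5 in HCD, and 160 in control, and its paralog arnt2 had 64.5 in HCD+BBR, 55.2 in HCD, and 77.5 in control. Both were highest in control, as the members were, with log2 differences for HCD+BBR over control of -0.34 at arnt and -0.36 at arnt2, and for HCD over control of -0.83 at arnt and -0.50 at arnt2.

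Other genes known to respond to the receptor differed both ways. Of 15 such genes, 11 had a probe, and for HCD+BBR over HCD none of 14 probes passed 2-fold, with a median of 0.15. This lies near the shares of all probes, 1.30% lower and 4.38% higher. The forkhead genes foxq1a and foxq1b, which are induced by dioxins in zebrafish, were lower in both diet groups than in control. The single probe of foxq1a had 408 in HCD+BBR, 358 in HCD, and 1021 in control, with log2 differences of -1.42 for HCD+BBR over control and -1.52 for HCD over control. That of foxq1b had 707 in HCD+BBR, 809 in HCD, and 1831 in control, with -1.47 and -1.19 in the same comparisons.

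The gene wfikkn1, an inhibitor of growth factors of the TGF-beta family, had -1.05 for HCD over control at 1 dim probe. That probe had 68.4 in HCD+BBR, 47.8 in HCD, and 98.1 in control. The other wfikkn1 probes well above background had -0.51 and -0.55. The glutathione transferase gene gstp1.1 went the other way, with 6207 in HCD+BBR and 2483 in control, a log2 difference of 1.23, and an outlier spot of 7156 in HCD. The single probe of nqo1, a quinone reductase shared between the AHR and the oxidative stress response, stayed short of 2-fold, with 0.37 for HCD+BBR over HCD, 0.11 for HCD over control, and 0.48 for HCD+BBR over control. Over the list, 3 of 14 probes were at least 2-fold lower and 0 higher for HCD over control, against 4.01% and 3.55% of all probes, and 2 of 15 were lower and 1 higher for HCD+BBR over control, against 1.32% and 3.72%.

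**Figure D4:**
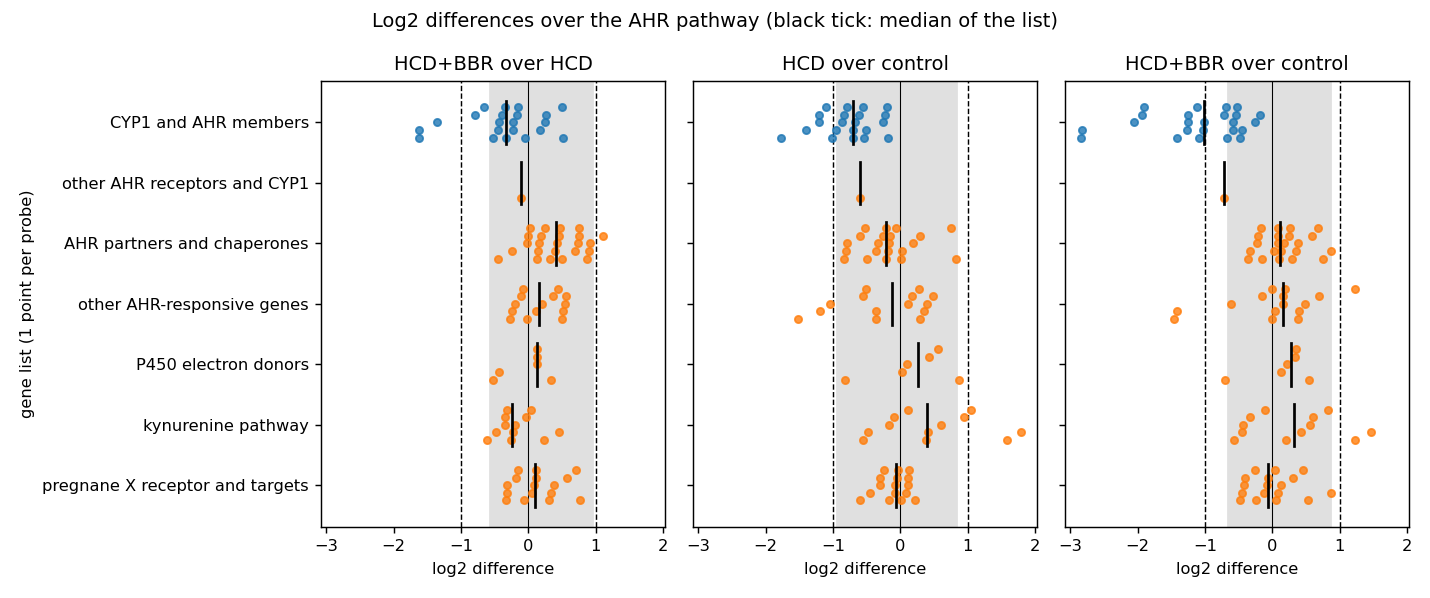
Log2 differences of the probes of the member genes (blue) and of 6 other gene lists around the AHR (orange), 1 point per probe, for HCD+BBR over HCD, HCD over control, and HCD+BBR over control. Black ticks are list medians, dashed lines mark 2-fold, and the grey band runs from the 5th to the 95th percentile of all probes. The member median lies at -1.02 for HCD+BBR over control, whereas that of all other lists together was 0.10.

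Genes whose pattern over the arrays was most like that of probe 1 of cyp1a were found by the distance between their log2 differences (HCD over control and HCD+BBR over HCD) and its own, taken at the brightest probe, over 11772 genes well above background on all arrays. The 5 nearest were kcnj1a.3, an inward rectifier potassium channel, cryaba, a small heat shock protein, apnl, an actinoporin-like protein, kcnq2a, a voltage-gated potassium channel, and crp6, a C-reactive protein, at distances of 0.13 to 0.34. The nearest, kcnj1a.3, had a signal of 56.5 in HCD+BBR, 124 in HCD, and 180 in control, with log2 differences of -1.22 for HCD+BBR over HCD and -0.54 for HCD over control. At cryaba, 2 probes showed the pattern, with -1.54 and -1.81 for HCD+BBR over HCD and -0.55 and -0.53 for HCD over control. Probes 2 and 3 of cyp1a lay farther from probe 1 than these genes, at distances of 0.70 and 0.71, so the likeness is to that probe and rests on 2 differences per gene.

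Markers of other cell types lay mostly within 2-fold, and most exceptions for HCD+BBR over control were among leukocytes. The summed signal of 6 macrophage and neutrophil markers, relative to the 75th percentile, was 19.9 in HCD+BBR, 17.0 in HCD, and 11.5 in control, and all 6 were well above background on all arrays. For HCD+BBR over control, 3 of them were at least 2-fold higher (mfap4.1 at 1.63, mpeg1.1 at 1.06, and lcp1 at 1.01), and mpx, the myeloperoxidase of neutrophils, was lower, at -2.48. Those of mpeg1.1 and lcp1 lay close to the threshold. Of all probes, with outlier spots kept as for the markers, 3.69% were at least 2-fold higher and 1.44% lower. The log2 differences of mpx, -1.59 for HCD+BBR over HCD and -0.89 for HCD over control, ran in the direction of those of cyp1a. The other markers of this list were all higher in HCD than in control. In the same comparisons, lyz had -0.07 and 0.43, and csf1ra had 0.66 and 0.25. The summed signal of 6 endothelial markers, cells in which cyp1a can also be induced, was 2.40 in HCD+BBR, 2.24 in HCD, and 2.55 in control, and among them cdh5 was not well above background in HCD. At cdh5 and kdrl, dim markers that add little to that sum, the log2 differences were -0.85 and -0.86 for HCD+BBR over control and -1.07 and -0.91 for HCD over control. For HCD+BBR over HCD, cdh5 and kdrl had 0.22 and 0.05. The markers fli1, pecam1a, tek, and vwf had -0.20, 0.01, -0.16, and 0.03 for HCD+BBR over control. For HCD over control these 4 had 0.14, 0.22, -0.29, and -0.26. The sums of hepatocyte, exocrine pancreas, intestine, muscle, epithelium, erythrocyte, and swim bladder and gill markers in HCD+BBR and in HCD lay within 1.5-fold of those in control. The part of these cell types in the result was not tested.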

How the data were processed

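Liver RNA of 3 groups (HCD+BBR, HCD, and control, from the labels) was labelled with Cy3 and hybridized to 1 Agilent zebrafish array each. The authors deposited the scanner output of Feature Extraction (11.5.1.1 per the file headers, 10.7 per the labels), which gives each spot a background-subtracted intensity, its error, and flags that mark saturation, outliers, and signal well above background. A table of log2 values deposited by the authors, from GeneSpring, holds values which differed from the log2 intensity minus the 75th percentile of the array by 0.0014 to 0.0019. The array was designed on another assembly than the name table, so no coordinates are given.

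Spots of a probe were averaged as log2 intensity, the 75th percentile over all 43603 probes other than controls was subtracted, and outlier spots were then left out, which left 2657 probes without a value on at least 1 array and 3 member probes without one in HCD. Marker sums kept these spots. A probe entered a comparison if well above background on at least 1 of its arrays, with the lowest signal well above background as the floor on the other. Probes were named by unversioned RefSeq accession against a table of assembly GRCz12tu, which named 13553 of 28397 accessions. Promoter and probe sequences were not analysed here.

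Differences were called at 2-fold, the fold part of the study's threshold, and with 1 array per group no test was made. The members and gene lists were chosen with earlier results of these data known. The text names every member probe, the genes of each list past 2-fold in a comparison (at most 6), fixed receptor and partner genes, and the 5 genes nearest to probe 1 of cyp1a. The genes hsp90aa1.1, tdo2a, tdo2b, nqo1, cyp3a65, nr1i2, nlgn3a, and sv2ca were named after their values were seen, as were the cell type markers named singly. Alternatives were quantile normalization, median scaling, the 75th percentile over detected probes, cyclic loess (3 iterations), normexp (offset 50, on the median intensity) followed by quantile normalization, outlier spots kept, thresholds of 1.5-fold and 3-fold, neither filter nor floor, the log2 values of the authors, a filter for detection on each array, 1 probe a gene, and the mean of the probes. The slide could not be a block, since the HCD array was alone on its slide. The steps were tested on simulated data. Python 3.11.15 (numpy 2.4.6, pandas 2.3.3, matplotlib 3.10.9) and limma 3.58.1 in R 4.3.3 were used.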

Additional observations from a re-analysis of the deposited data

How the results depend on the processing

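No paired analysis was possible because each group has 1 array, and for the same reason none could be left out. The member counts past 2-fold were 3 for HCD+BBR over HCD, 6 for HCD over control, and 13 for HCD+BBR over control. They moved by over 1.5 times in these settings: normexp background correction gave 2 for HCD over control and 6 for HCD+BBR over control, 1.5-fold gave 5 for HCD+BBR over HCD and 14 for HCD over control, and 3-fold gave 1 for HCD over control and 5 for HCD+BBR over control. One probe a gene, and likewise the mean over a gene's probes, gave 1, 2, and 5 genes in the 3 comparisons. All 3 cyp1a probes stayed at least 2-fold lower for HCD+BBR over HCD and over control in each of 9 settings, and of 591 probe values 32 moved by over the SD between probes, 16 with normexp, 10 with cyclic loess, and 6 with quantile normalization.

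The pathway list count for HCD+BBR over HCD, 1, was 0 with median scaling, 3-fold, 1 probe a gene, or the mean of the probes, 2 with outlier spots kept, no filter, or the authors' log2 values, and 11 at 1.5-fold. For HCD over control, 6 became 18 at 1.5-fold, 1 at 3-fold, and 3 with 1 probe a gene or the mean. Of the 6, 3 were lower, and the lower count was 2 with quantile normalization, median scaling, cyclic loess, or normexp. For HCD+BBR over control, 5 became 3 with normexp, 15 at 1.5-fold, and 0 at 3-fold. The thresholds and the counting by gene change what is counted. For HCD+BBR over HCD, more probes were counted with outlier spots kept (78), no filter (76), and the authors' log2 values (78) than the 73 of the main processing. Beyond this, the cause was not tested.

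Scaling shifted the median of all probes for HCD+BBR over HCD, which was 0.12, to -0.02 with median scaling, quantile normalization, or cyclic loess. The lower share of all probes past 2-fold was 22.8% for HCD+BBR over HCD, against 41.7% with median scaling, 51.8% with quantile normalization, 50.4% with cyclic loess, and 44.3% with normexp. For HCD over control it was 53.1%, against 40.1%, 29.8%, 24.3%, and 26.5% in the same order. The number of arrays limits every value, and dim probes such as those of ahrrb lie close to background.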

Other observations

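Enzymes that can make or clear natural AHR ligands from tryptophan were set beside the receptor as a list of 12 kynurenine pathway genes, of which 7 had a probe. For HCD over control, 3 of 12 probes were at least 2-fold higher, where 3.55% of all probes were, and 0 were lower. The gene ido1, which opens the tryptophan ring, had 209 in HCD+BBR, 247 in HCD, and 70.9 in control at 1 probe and 225 in HCD+BBR, 270 in HCD, and 89.8 in control at the other. Both ido1 probes passed 2-fold for HCD over control, at 1.79 and 1.58, and for HCD+BBR over control, at 1.47 and 1.23. In these comparisons they ran in the direction opposite to cyp1a. With normexp background correction, only 1 probe of all the lists was at least 2-fold higher for HCD+BBR over control, so at most 1 ido1 probe passed. For HCD+BBR over HCD, the ido1 probes had -0.32 and -0.35, in the direction of cyp1a and short of 2-fold. The brighter tdo2a and tdo2b of this list, at 4945 and 3931 in HCD+BBR, did not pass 2-fold. For HCD+BBR over HCD, HCD over control, and HCD+BBR over control, tdo2b had -0.48, -0.10, and -0.58. The first and last ran in the direction of cyp1a, and the -0.10 lay near -0.16, the median of all probes for HCD over control. In the same comparisons tdo2a had -0.22, 0.11, and -0.11. The gene haao, a dioxygenase later in the pathway, had 1 of 2 probes past 2-fold for HCD over control, at 1.04, with 0.95 at the other. For HCD+BBR over HCD no probe of the list passed 2-fold, near the 1.30% lower and 4.38% higher of all probes, with a median of -0.24.

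The pregnane X receptor nr1i2, another sensor of foreign compounds, and its targets showed no 2-fold difference among 16 probes for HCD+BBR over HCD, 16 for HCD over control, and 17 for HCD+BBR over control. Over all probes, 1.30%, 4.01%, and 1.32% were at least 2-fold lower in these comparisons, and 4.38%, 3.55%, and 3.72% higher. Finding none among so few probes lies near these shares. The probes of cyp3a65, a P450 of that list, had log2 differences of 0.11 and 0.05 for HCD+BBR over HCD and 0.03 and -0.25 for HCD+BBR over control. Of 6 genes that supply electrons to P450 enzymes, 5 had a probe, and none of their 6 probes passed 2-fold in any comparison, with values between -0.70 and 0.54 for HCD+BBR over control. This too lies near the shares of all probes.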
